A study of Mus musculus with 10 samples.

Results

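Kiss1, the gene of the peptide hormone kisspeptin, and Kiss1r, the gene of its receptor, are 2 of the 32648 genes measured by RNA-seq in renin cells of the mouse kidney. Both were taken from the table by symbol. Kiss1 was selected on its own level in these data, which earlier results showed to be low in right kidneys after aortic coarctation, so every contrast that uses the coarctation libraries is given for it as a description without p. The cells came from adult Ren1c-YFP mice of strain C57BL/6, 8 to 12 weeks old, in which a yellow fluorescent protein under renin gene regulatory sequence marks renin cells. In coarctation mice the aorta was constricted between the origins of the renal arteries. Sham mice had surgery in which the aorta was neither exposed nor constricted. At 72 h, live cells with the fluorescent protein were sorted from the cortex of each kidney, 1000 cells per kidney, so all groups share the reporter, the sort and the SMART-Seq v4 amplification. There were 4 groups, with 3 right and 3 left kidneys of 3 coarctation mice, and 2 right and 2 left kidneys of 2 sham mice.

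Kisspeptin is cut from the protein that Kiss1 encodes and is amidated at its carboxyl end. It acts through Kiss1r, a receptor coupled to Gq and G11 proteins, which activate phospholipase C and release calcium from stores. It is best known for driving the neurons that secrete gonadotropin-releasing hormone and was first described as a suppressor of metastasis. In the mouse genome Kiss1 lies next to Ren1, the gene of renin, the enzyme that cleaves angiotensinogen and the defining product of these cells. In mice the right renal artery commonly arises above the left, which puts the right kidney above such a constriction and the left kidney below it. The labels give no pressures.

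Kiss1 (ENSMUSG00000116158.1) lies on chromosome 1 of GRCm38, from 133321875 to 133329901 on the plus strand, with 3 exons in its longest transcript in GENCODE vM21. Ren1 follows on the same strand from 133350510 to 133360325, and 20.6 kb separate the end of Kiss1 from its start. Kiss1r (ENSMUSG00000035773.6) lies apart from both, on chromosome 10 from 79916971 to 79922273, with 5 exons. Kiss1 has 2 annotated transcripts, of 779 bases (3 exons) and of 496 bases (2 exons, start at 133327212). The average transcript length given for Kiss1 in the deposited table was 234 to 263 bases across libraries. Genes with a single transcript within 15 bases of the shorter form had median table lengths of 241 to 260 bases in the same libraries, and those near the longer form had 532 to 577 bases. In all 10 libraries the Kiss1 length was thus nearer to that of the shorter form.

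The RefSeq start of Kiss1 is the start of this shorter transcript. The promoter windows of Kiss1 and Ren1 are shown because both neighbours had their lowest levels in the right kidneys of coarctation mice. Each runs from 250 bases before to 50 bases after the RefSeq start, 5′ to 3′ on the plus strand of GRCm38.p6, at chr1:133326962-133327261 for Kiss1 and chr1:133350424-133350723 for Ren1. The RefSeq start of Ren1 lies inside the GENCODE gene, beyond its first base. Capitals mark TGACCT, a motif bound by nuclear receptors, in the Kiss1 window. In the Ren1 window they mark TATAAA, the box that positions transcription starts.
Kiss1: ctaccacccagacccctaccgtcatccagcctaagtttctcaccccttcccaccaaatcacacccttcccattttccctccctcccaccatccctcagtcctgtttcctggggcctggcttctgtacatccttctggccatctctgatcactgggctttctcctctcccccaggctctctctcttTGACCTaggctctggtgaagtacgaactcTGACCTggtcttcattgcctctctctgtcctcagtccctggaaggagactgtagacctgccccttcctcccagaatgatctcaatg
Ren1: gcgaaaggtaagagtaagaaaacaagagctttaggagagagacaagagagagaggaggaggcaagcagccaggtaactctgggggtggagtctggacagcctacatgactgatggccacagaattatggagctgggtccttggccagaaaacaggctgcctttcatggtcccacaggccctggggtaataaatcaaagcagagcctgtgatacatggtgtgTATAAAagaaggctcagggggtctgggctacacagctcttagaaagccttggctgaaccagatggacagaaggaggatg

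TGACCT occurred 2 times in the Kiss1 window, with first bases 65 and 36 bases before the start, and in 16% of the 27025 RefSeq mouse promoter windows of this length when both strands were searched. The core of a cyclic AMP response element, TGACG, occurred once in the Kiss1 window, 231 bases before the start on the minus strand, and in 21% of all windows. TATAAA was in the Ren1 window 29 bases before the start, was not in the Kiss1 window, and was in 14.2% of all windows. CANNTG, the E-box, occurred in the Ren1 window 29 bases after the start and in 72.1% of all windows, and GGGCGG, the GC box, in neither of these windows and in 35.9% of all. None of these letters overlapped in the Kiss1 window, and a match describes the sequence only.

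Kiss1 was lower in the right kidneys of coarctation mice than in every other library. In TPM, a transcript level corrected for transcript length and library size, Kiss1 was at 0.116, 0.772 and 7.10 in the right kidneys of coarctation mice 1, 2 and 3, against 33.1, 224 and 206 in their left kidneys. Sham mice 1 and 2 had 84.5 and 98.3 TPM in right kidneys, against 145 and 258 TPM in left kidneys. The 3 right kidneys with coarctation were below all 7 other libraries. The highest of the 3 was 4.66-fold below the lowest of the 7, the left kidney of coarctation mouse 1. Among the 18825 genes tested, 154 (0.818%) had all right kidneys with coarctation below all other libraries. With so few libraries some genes meet this by order alone, and Kiss1 was selected for its low level there.

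**Figure D1:**
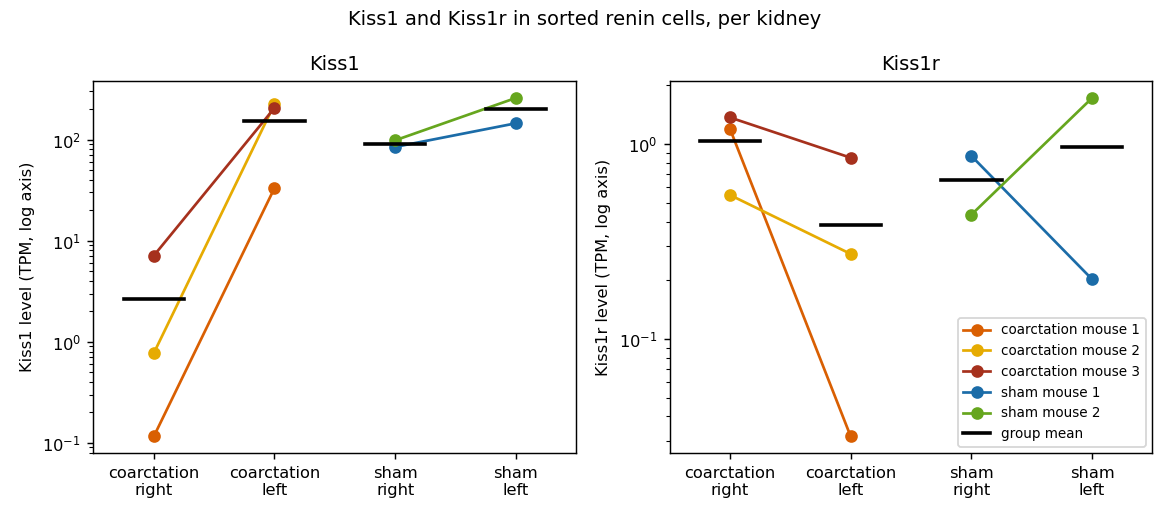
TPM of Kiss1 (left panel) and Kiss1r (right panel) on log axes in each group. Points are kidneys, lines join the kidneys of a mouse and black bars are group means. Kiss1 lies at 0.116 to 7.10 TPM in right kidneys with coarctation and at 33.1 TPM or more elsewhere, and Kiss1r overlaps between all groups.

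In group means, Kiss1 was at 2.66 ± 3.86 TPM in right kidneys with coarctation and at 154 ± 105 TPM in left kidneys with coarctation (SD, n = 3 each). Sham right kidneys averaged 91.4 ± 9.73 TPM and sham left kidneys 201 ± 80.0 TPM (SD, n = 2 each). From low to high the means ran coarctation right, sham right, coarctation left and sham left. The ranges of coarctation left and sham right overlapped, as did those of coarctation left and sham left, so only the first step of this order exceeds the spread. By rank among all genes of a library, Kiss1 was 17141st, 12545th and 6004th in the right kidneys of coarctation mice 1, 2 and 3, and 2163rd, 685th and 712th in their left kidneys. In the sham libraries it ranked 623rd to 1303rd. In bulk samples of sorted cells, fewer cells of a type and less RNA per cell cannot be told apart.

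These values rest on few reads in the low libraries. Rounded estimated counts of Kiss1 were 1, 8 and 59 in the right kidneys of coarctation mice 1, 2 and 3, against 270, 2059 and 1845 in their left kidneys. Sham mice 1 and 2 had 583 and 925 counts in right kidneys, against 1085 and 2384 in left kidneys. The library totals were 20029817 to 32006229 estimated counts, and the 3 right kidneys with coarctation had 25051905 to 32006229.

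Within each coarctation mouse the right kidney had less Kiss1 than the left. In mouse 1 the right kidney was 286-fold lower, with a counting interval of 54.3- to 12100-fold (95%, exact binomial, counting error only). It is wide because the fold rests on 1 estimated count. Such an interval takes estimated counts as read counts and leaves out how reads were divided between genes. In mouse 2 the right kidney was 290-fold lower and in mouse 3 it was 28.9-fold lower. In the shams the right kidney was also the lower one, 1.71-fold in mouse 1 and 2.62-fold in mouse 2. For Kiss1 as deposited, the smallest of the 3 coarctation differences was -4.86 on the log2 scale, in mouse 3. It exceeded the larger sham difference, -1.39 in sham mouse 2, by more than 3. With the counts of the overlapping gene Gm28040 added, described below, this did not hold. Coarctation mouse 1 then differed by a smaller fold than sham mouse 2.

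In the fit of all 10 libraries the log2 change of Kiss1, right minus left, was -6.01 (SE 1.08) in coarctation mice and -1.19 (SE 1.06) in sham mice. The difference between these changes was -4.82 (SE 1.46). Across surgeries, the right kidneys with coarctation were lower than sham right kidneys by a log2 change of -5.03 (SE 1.07). The left kidneys with coarctation differed from sham left kidneys by -0.20 (SE 0.95), less than its error. The coarctation value depended on the right kidney of mouse 3: without that library the log2 change was -8.51 between kidneys and -7.53 against sham right kidneys. The change between sham kidneys, the comparison that the choice of Kiss1 did not rest on, did not pass the edgeR quasi-likelihood test (adjusted p = 1, lower in 2 of 2 mice).

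That test called 0 of 18825 genes in the sham comparison (0%), and 366 genes (1.94%) had an unadjusted p under 0.05, with 27 genes called by DESeq2. It also called 0% of genes in the other 4 comparisons. Genes at an unadjusted p under 0.05 made up 4.63% for coarctation right minus left, 3.05% for the difference between the changes, 4.75% for left kidneys and 3.82% for right kidneys. In size, 24 of the 18825 genes had a lower fitted change than Kiss1 as deposited in coarctation right minus left. Of the 10854 genes whose log2 CPM, the count scaled to library size, was 2 or more, 3 did. Kiss1 was selected for its low level in these right kidneys, so this place describes the choice. Between sham kidneys 1421 genes were lower than Kiss1, so its place there was not an extreme one.

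Part of the Kiss1 sequence is also counted under a second gene. Gm28040 is annotated mainly as a readthrough from Golt1a, the gene before Kiss1, and its longest form shares exons with Kiss1. A form of 656 bases instead starts at 133323966, after the end of Golt1a and inside the Kiss1 span. That form and one of 583 bases end at the same base as the shorter Kiss1 transcript. The authors' quantification may thus have divided reads between Gm28040 and Kiss1. Gm28040 had 269, 160 and 194 counts in the right kidneys of coarctation mice 1, 2 and 3, against 181, 94 and 188 in their left kidneys. In sham mice 1 and 2 it had 79 and 58 counts in right kidneys, against 45 and 99 in left kidneys. It did not share the low right-kidney level of Kiss1, with a log2 change of 0.20 (SE 0.64, edgeR adjusted p = 1) in coarctation mice.

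Of the counts of both genes, Kiss1 took 0.395%, 4.66% and 23.4% in the right kidneys of coarctation mice 1, 2 and 3, against 59.9%, 95.6% and 90.8% in their left kidneys. It took 88.1% and 94.1% in the right kidneys of sham mice 1 and 2, against 96.0% in the left kidney of each. Summed, the genes had 270, 168 and 253 counts in the right kidneys with coarctation, against 452, 2153 and 2034 in the left. Sham mice 1 and 2 had sums of 662 and 983 in right kidneys, against 1130 and 2483 in left kidneys. The right kidney remained the lower one in each mouse, but by a smaller fold in coarctation mouse 1 than in sham mouse 2. The log2 change of the sum between coarctation kidneys was -2.84 (SE 0.53), in place of -6.01 for Kiss1 alone, so the size of the Kiss1 change depends on how shared reads were assigned while the right kidney was lower either way. The counting method is not given in the sources used here.

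Ren1 was lower on the same side as Kiss1. It was at 5451, 11982 and 10835 TPM in the right kidneys of coarctation mice 1, 2 and 3, against 29285, 48620 and 36877 TPM in their left kidneys. Sham mice 1 and 2 had 21776 and 48591 TPM in right kidneys, against 30521 and 43896 TPM in left kidneys. The right kidneys with coarctation were again below all other libraries. The log2 change within mice 1, 2 and 3 was -2.43, -2.02 and -1.77 for Ren1, and -8.16, -8.18 and -4.86 for Kiss1, all in TPM. Which of them differed more depends on how shared reads were assigned. With the counts of Kiss1 and Gm28040 summed, the fitted log2 changes were -2.84 between coarctation kidneys, -1.73 for the difference between the changes and -1.82 against sham right kidneys. Those of Ren1 were -2.20, -2.11 and -1.85 in the same order.

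For Kiss1 as deposited, apart from Gm28040, the ratio to Ren1 was lower as well. Per 1000 TPM of Ren1, Kiss1 had 0.0212, 0.0644 and 0.655 TPM in the right kidneys of coarctation mice 1, 2 and 3, against 1.13, 4.60 and 5.57 TPM in their left kidneys. In sham mice 1 and 2 it had 3.88 and 2.02 TPM in right kidneys, against 4.75 and 5.88 TPM in left kidneys. No right kidney with coarctation reached that ratio in any other library. With the TPM of Gm28040 added to Kiss1 this no longer held: the ratio was 1.67, 0.470 and 1.32 in the right kidneys of coarctation mice 1, 2 and 3, against 1.36, 4.67 and 5.75 in their left kidneys, so that mouse 1 had the higher one on the right. Right kidneys of sham mice 1 and 2 had summed ratios of 4.04 and 2.06, against 4.81 and 5.95 in left kidneys. In the fit Ren1 had a log2 change of -2.20 (SE 0.36) between coarctation kidneys, which did not pass the edgeR test (adjusted p = 0.165, lower in 3 of 3 mice). It was called with the mouse as a replicate block (adjusted p = 0.00275), where Kiss1 had a log2 change of -6.75 (SE 0.70). The adjusted p of Ren1 ran from 1.9e-13 to 1 over all alternatives. The change of Ren1 was known before these tests, so its p values describe it and are no independent support. The reporter transcript EYFP showed the same side in every coarctation mouse (log2 -2.77, -2.46 and -1.17 in TPM), against -0.10 and 0.45 in the shams.

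**Figure D2:**
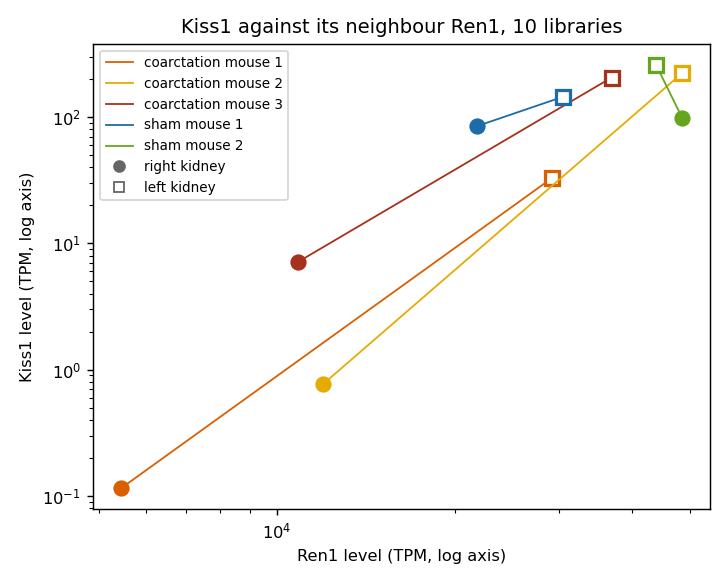
Kiss1 against Ren1 in TPM, both on log axes, in 10 libraries. Filled circles are right kidneys, open squares are left kidneys and lines join the kidneys of a mouse. The 3 right kidneys with coarctation lie at the lower left, at 0.116 to 7.10 TPM of Kiss1 and 5451 to 11982 TPM of Ren1.

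The genes near Kiss1 were counted against all genes. The annotation holds 28 genes within 500 kb of Kiss1, of which 18 were in the table and 16 were tested. None of the 16 was called by edgeR in any of the 5 comparisons (0 genes). At that unadjusted threshold there was 1 of the 16, Ren1, in coarctation right minus left, beside 4.63% of all genes, and 0 in sham right minus left, beside 1.94%. Ren1 was also the one of the 16 for the difference between the changes, beside 3.05% of all genes. Atp2b4, which encodes a calcium pump of the plasma membrane, was the one in left kidneys, and Atp2b4 and Ren1 were those in right kidneys, beside 4.75% and 3.82% of all genes. With 16 genes, counts this small do not set the neighbours apart from other genes.

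The 10 named neighbours are the 5 nearest genes in the table on each side. Before Kiss1 these are Pik3c2b (a lipid kinase), Ppp1r15b (a phosphatase subunit that reverses the arrest of translation under stress), Plekha6, Golt1a and Gm28040. After it come Ren1, Etnk2 (an ethanolamine kinase), Sox13 (a transcription factor), the pseudogene Gm8596, which was too low to test, and Snrpe (a core protein of the spliceosome). Between coarctation kidneys Golt1a, whose span overlaps Kiss1, had a log2 change of -0.17 (SE 1.13), and Etnk2, the gene after Ren1, had 0.15 (SE 0.65). Plekha6 had -0.12 (SE 0.52) and Sox13 had -0.41 (SE 0.42). Ppp1r15b had -0.40 (SE 0.40), Snrpe had -0.15 (SE 0.27) and Pik3c2b had 0.68 (SE 0.79), each with an edgeR adjusted p = 1. The median over the 16 tested genes was -0.16 in coarctation mice and -0.18 in sham mice, beside a median over all tested genes of 0.02 in each.

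**Figure D3:**
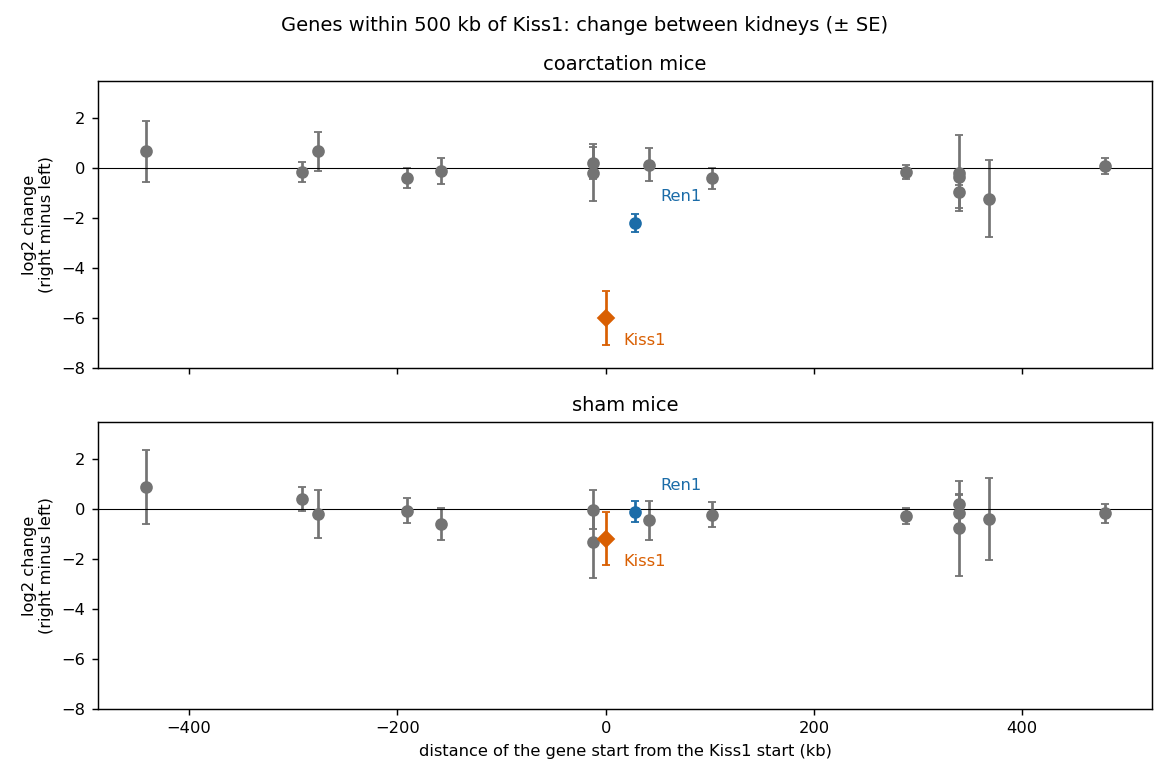
Fitted log2 change, right minus left kidney (± SE), of Kiss1 and the tested genes within 500 kb, by the distance of their start from that of Kiss1 in kb, in coarctation mice (top) and sham mice (bottom). In coarctation mice Kiss1 stands at -6.01 and Ren1 at -2.20, while in sham mice they stand at -1.19 and -0.09.

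Kiss1r was low in all groups and its values overlapped between them. It was at 1.20, 0.548 and 1.37 TPM in the right kidneys of coarctation mice 1, 2 and 3, against 0.0315, 0.273 and 0.851 TPM in their left kidneys. Sham mice 1 and 2 had 0.869 and 0.434 TPM in right kidneys, against 0.202 and 1.73 TPM in left kidneys. The highest and the lowest Kiss1r values were both in left kidneys, in sham mouse 2 and in coarctation mouse 1. In counts, Kiss1r had 89, 45 and 92 in right kidneys with coarctation, against 2, 20 and 61 in left kidneys with coarctation. Sham right kidneys had 48 and 33 counts, and sham left kidneys 12 and 128.

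In each coarctation mouse the right kidney had more Kiss1r, opposite to Kiss1. The difference was 37.9-fold in mouse 1, where the left kidney had 2 counts (counting interval 10.6- to 330-fold), 2.01-fold in mouse 2 and 1.61-fold in mouse 3. The sham mice went opposite ways, 4.30-fold higher in the right kidney of mouse 1 and 3.97-fold lower in that of mouse 2. None of the 5 edgeR tests of Kiss1r passed. The log2 change was 1.32 (SE 1.11, adjusted p = 1) between coarctation kidneys and -0.69 (SE 1.35, adjusted p = 1) between sham kidneys. The difference between these was 2.01 (SE 1.75, adjusted p = 1). Against sham, Kiss1r had -1.12 (SE 1.21, adjusted p = 0.924) in left kidneys and 0.89 (SE 1.26, adjusted p = 0.996) in right kidneys with coarctation. Without the left kidney of sham mouse 2 the sham value turned to 1.69, the difference between the changes to -0.37 and the left-kidney value to 1.28.

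The genes that surround kisspeptin in its known pathway were described in 4 lists of 66 genes, all in the table, of which 59 were tested. By edgeR 0 of the 59 were called in each of the 5 comparisons. At an unadjusted p under 0.05 there were 3 genes (5.08%) in coarctation right minus left, beside 4.63% of all genes, and 0 (0%) in sham right minus left, beside 1.94%. There was 1 gene (1.69%) for the difference between the changes, 4 (6.78%) in left kidneys and 1 (1.69%) in right kidneys, beside 3.05%, 4.75% and 3.82% of all genes. These shares lie near those of all genes.

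**Figure D4:**
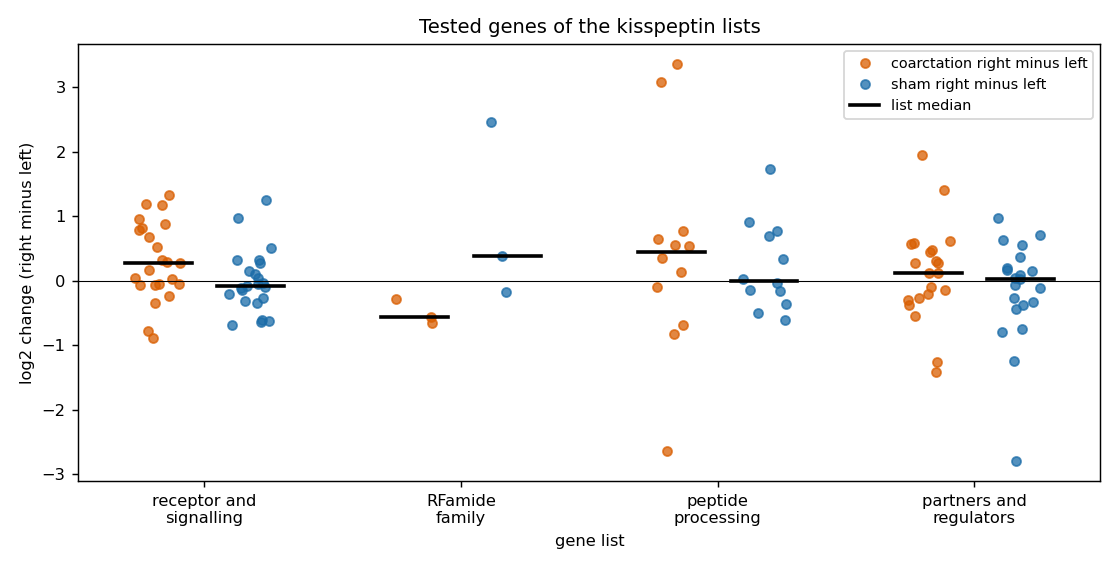
Fitted log2 change, right minus left kidney, of the tested genes in 4 kisspeptin lists, in coarctation mice (orange) and sham mice (blue). Points are genes and black bars are list medians, which run from -0.56 to 0.44 in coarctation mice and from -0.08 to 0.38 in sham mice.

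The list of the receptor and its signalling partners held 23 genes, all tested, with 0 called. It covers the G proteins, phospholipases, inositol trisphosphate receptors, kinases, arrestins and the RGS proteins that end G protein signals. Between coarctation kidneys 15 of the 23 had a positive change and 8 a negative one, with a median log2 change of 0.28 beside 0.02 over all genes. Between sham kidneys the counts were 9 and 14 with a median of -0.08. The most abundant were Rgs5, at 355 to 820 TPM over the 10 libraries, Rgs2, at 76.7 to 378 TPM, and Rgs4, at 24.7 to 54.7 TPM. Between coarctation kidneys their log2 changes were 0.17 (SE 0.28) for Rgs5, 0.04 (SE 0.55) for Rgs2 and 0.28 (SE 0.31) for Rgs4. RGS transcripts were thus plentiful on both sides.

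In left kidneys 3 signalling genes were lower with coarctation than in sham at an unadjusted p under 0.05 (Arrb1, Itpr3 and the receptor kinase Grk2), and none passed. Arrb1, the gene of beta-arrestin 1, which uncouples receptors from G proteins, was at 0.615, 1.06 and 0.381 TPM in left kidneys with coarctation, against 2.82 and 2.11 TPM in sham left kidneys. Its log2 change was -1.62 (SE 0.54, edgeR adjusted p = 0.912). Itpr3, an inositol trisphosphate receptor, was at 0.0395, 0.0886 and 0.0195 TPM in left kidneys with coarctation, against 0.300 and 0.313 TPM in sham left kidneys. The log2 change of Itpr3 was -2.44 (SE 1.00, edgeR adjusted p = 0.912).

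Among the kinases, Prkca, a protein kinase C, was at 1.60, 6.67 and 4.99 TPM in the right kidneys of coarctation mice 1, 2 and 3, against 6.30, 8.84 and 4.66 TPM in their left kidneys. It was lower on the right in mice 1 and 2 and not in mouse 3. The difference between its coarctation and sham changes was -1.76 (SE 0.87), and for Mapk14, the p38 alpha kinase, it was -1.39 (SE 0.68), each with an edgeR adjusted p = 1. Prkcd, another protein kinase C, was at 8.06, 7.63 and 7.41 TPM in right kidneys with coarctation, against 4.39 and 3.49 TPM in sham right kidneys. The log2 change of 1.12 (SE 0.53) between these groups did not pass (edgeR adjusted p = 0.996).

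The list of enzymes that make or cleave peptides held 13 genes, 12 of them tested, and all 3 list genes at an unadjusted p under 0.05 between coarctation kidneys came from it. These were Mme and Mmp9, higher on the right, and Mmp2, lower on the right, each with an edgeR adjusted p = 1. Mmp2 and Mmp9 encode the gelatinases, matrix metalloproteinases that cleave kisspeptin in human cells, and Mme encodes neprilysin, a peptidase of the cell surface. The list had a median log2 change of 0.44 between coarctation kidneys and -0.01 between sham kidneys.

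Mmp2 was at 0.0208, 0.0641 and 0.0338 TPM in the right kidneys of coarctation mice 1, 2 and 3, against 0.330, 0.0620 and 0.256 TPM in their left kidneys. Sham mice 1 and 2 had 0.640 and 1.47 TPM in right kidneys, against 0.106 and 0.510 TPM in left kidneys. The right kidneys with coarctation were lowest in mice 1 and 3, while the kidneys of mouse 2 were nearly level. These are 2, 6 and 3 counts on the right and 26, 6 and 22 on the left in coarctation mice. The log2 change was -2.64 (SE 1.08) between coarctation kidneys and -4.62 (SE 1.19, edgeR adjusted p = 0.996) against sham right kidneys. Mmp2 was also the list gene with a difference between the changes, of -4.37 (SE 1.64, edgeR adjusted p = 1). DESeq2 called it between right kidneys (adjusted p = 0.00837, between 0.00837 and 1 over the alternatives).

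Mme and Mmp9 varied widely between mice. Mme was at 16.0, 0.359 and 3.60 TPM in the right kidneys of coarctation mice 1, 2 and 3, against 0.964, 1.14 and 0.288 TPM in their left kidneys. It was higher on the right in mice 1 and 3 and lower in mouse 2, with a log2 change of 3.08 (SE 1.10). Mmp9 was at 0.0917, 0.275 and 0.321 TPM on the right, against 0.0236, 0.0301 and a listed 0 on the left. Its counts there were 5, 18 and 17 on the right and 1, 2 and 0 on the left, and sham kidneys had 1 to 23. The log2 change of Mmp9 against sham in left kidneys was -3.38 (SE 1.48), and without the left kidney of sham mouse 1 it was 0.20.

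Genes of the convertase and amidation steps were at measurable levels, and none was called. Cpe, the carboxypeptidase that trims peptide precursors, was at 67.5 to 218 TPM over the libraries, Pcsk7, a proprotein convertase, at 4.96 to 15.7 TPM, and Pam, the amidating enzyme, at 3.14 to 14.1 TPM. Between coarctation kidneys their log2 changes were 0.35 (SE 0.36) for Cpe, 0.55 (SE 0.46) for Pcsk7 and 0.64 (SE 0.48) for Pam. Cpe was at 96.1, 218 and 156 TPM in right kidneys with coarctation, against 73.4 and 113 TPM in sham right kidneys, with overlap and a log2 change of 0.82 (SE 0.42, edgeR adjusted p = 0.996). Pcsk1, another convertase of peptide precursors, was too low to test.

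Other RFamide peptides, the family to which kisspeptin belongs, were scarce. Of 8 such peptide and receptor genes, 3 were tested and 0 called. Npff, the gene of neuropeptide FF, was at 0.0754 to 5.18 TPM, Qrfp at 0 to 1.56 TPM and Npffr1, a receptor, at 0.0319 to 0.293 TPM over the libraries. Each had a negative change between coarctation kidneys, of -0.65 (SE 1.20), -0.56 (SE 1.51) and -0.28 (SE 1.09) in that order, none beyond its error. Their levels overlapped between right and left kidneys.

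The list of peptides made with kisspeptin in neurons and of factors known to act on Kiss1 transcription held 22 genes, 21 of them tested, with 0 called. Between coarctation kidneys 12 had a positive and 9 a negative change, with a median of 0.12, and between sham kidneys 11 and 10, with a median of 0.02. Egr1, an immediate early transcription factor, was at 45.4 to 169 TPM, Eed, a Polycomb subunit that represses Kiss1 in the rat hypothalamus, at 15.1 to 37.9 TPM, and Gata3 at 13.1 to 35.2 TPM. Eed was at 29.0, 37.9 and 27.8 TPM in the right kidneys of coarctation mice 1, 2 and 3, against 15.1, 25.2 and 17.3 TPM in their left kidneys. It was higher on the right in each of them, and also in each sham mouse, with 34.5 and 27.5 TPM on the right against 18.8 and 21.7 TPM on the left. Its log2 change was 0.57 (SE 0.29) in coarctation mice and 0.56 (SE 0.36) in sham mice, each with an edgeR adjusted p = 1. Pdyn, the gene of dynorphin, had a sham change of -2.80 (SE 1.83, edgeR adjusted p = 1) and at most 24 counts in any library. A further list of factors known to act on renin transcription had 27 of its 28 genes tested and 0 called, with 1 at an unadjusted p under 0.05, Ep300 in right kidneys, where it was higher with coarctation, beside 3.82% of all genes.

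Across the 10 libraries, the genes whose log2 CPM followed Kiss1 as deposited most closely included Ren1. Likeness to the Kiss1 counts summed with those of Gm28040 was not computed. Pearson r was computed for 9802 genes whose log2 CPM averaged 2 or more, without predicted genes, and is a description: the 10 points are 5 mice in 4 groups, and the kidneys of a mouse share that mouse. The median r was -0.02, 6 genes had r over 0.9 and 2 had r under -0.9. Usp54 (r = 0.937), Adgrd1 (0.931), Zfand3 (0.923) and Tubb5 (0.922) were among the first, and Ren1 was the 6th (0.919). Tle2 (0.899), Nsun5 (0.898), Mapk8ip3 (0.897) and Dclk1 (0.891) followed. Tle2 is a transcriptional corepressor, Tubb5 a beta-tubulin, Adgrd1 an adhesion G protein-coupled receptor and Dclk1 a kinase bound to microtubules.

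The genes were chosen by their r with Kiss1, to which its low values in the 3 right kidneys with coarctation contribute, so low levels there describe the choice. Dclk1 averaged 0.497 ± 0.202 TPM in right kidneys with coarctation and 3.33 ± 1.21 TPM in left kidneys with coarctation (SD, n = 3 each). Adgrd1 averaged 0.295 ± 0.120 TPM on the right and 1.29 ± 0.144 TPM on the left. Both lay below every other library in all 3 right kidneys with coarctation. Usp54 ran from 0.354 to 1.35 TPM on the right and from 0.842 to 1.58 TPM on the left, with overlap. Zfand3 also overlapped, at 4.99 to 6.46 TPM on the right and 6.04 to 10.0 TPM on the left. In the 5 within-mouse differences the r of these genes with Kiss1 was 0.953 for Adgrd1 and 0.970 for Nsun5, against 0.796 for Usp54 and 0.643 for Mapk8ip3.

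Without the right kidneys with coarctation the order of likeness was a different one. Over the other 7 libraries r was 0.470 for Ren1, 1565th among the 9802 genes, -0.466 for Adgrd1 and 0.0886 for Tle2, while it was 0.798 for Usp54 and 0.818 for Zfand3. None of the 10 most alike genes over all libraries was among the 10 most alike over these 7. The r of Ren1 with Kiss1 was 0.959 without sham mouse 1 and 0.885 without coarctation mouse 1. Other genes abundant in renin cells had r of 0.880 (Aldh7a1), 0.741 (EYFP) and 0.652 (Akr1b7).

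The genes most opposite to Kiss1 were H2-DMa (r = -0.933), which loads peptides onto class II molecules, Tmem47 (-0.918), Eps15l1 (-0.878), Vps33b (-0.877) and Trappc10 (-0.877). H2-DMa averaged 8.90 ± 3.67 TPM in right kidneys with coarctation and 2.29 ± 0.961 TPM in left kidneys with coarctation (SD, n = 3 each). The lowest right kidney, at 5.27 TPM, was above the highest of all other libraries, a sham right kidney at 4.36 TPM. Vps33b and Trappc10 act in vesicle tethering, and Eps15l1 in endocytosis.

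**Figure D5:**
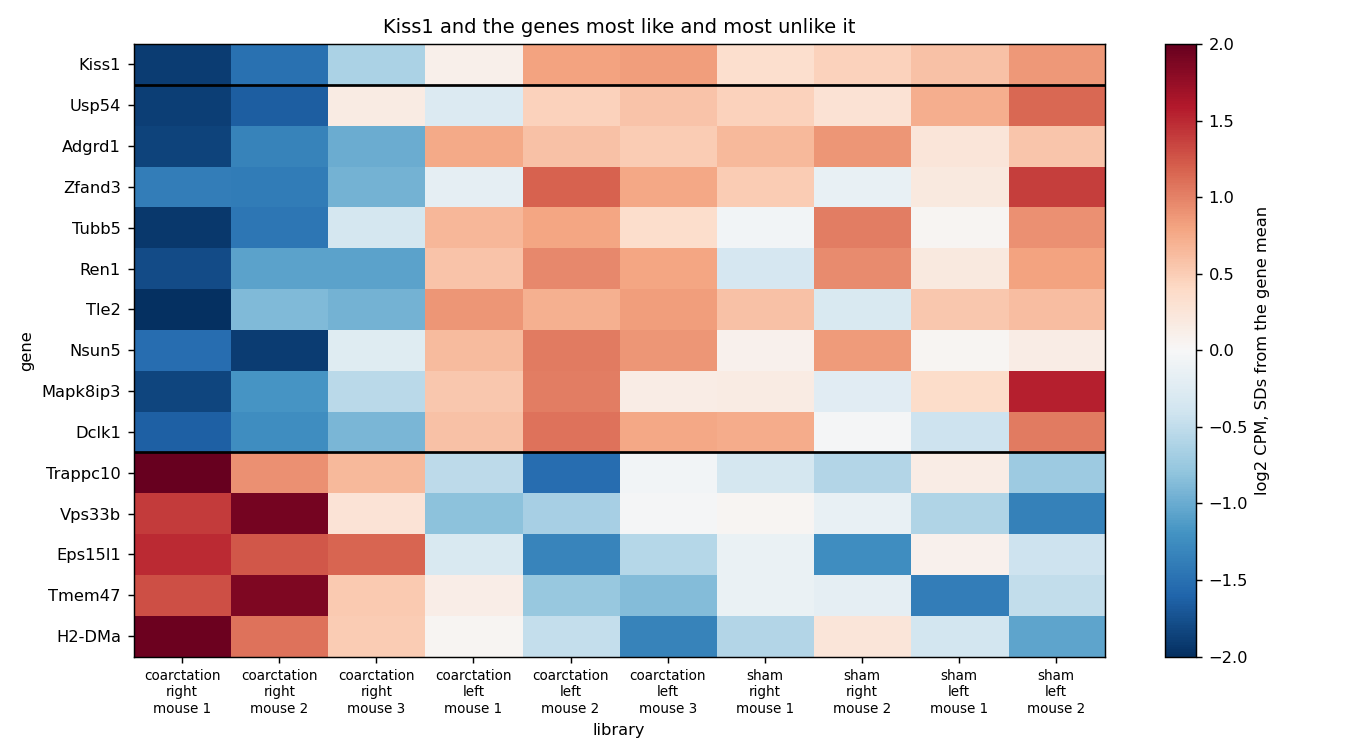
Log2 CPM in 10 libraries (columns) of Kiss1, of 9 of the 10 genes with the highest r to it and of the 5 with the lowest (rows), each in SDs from the mean of the gene. Blue is low and red is high. The 3 right kidneys with coarctation are low in nearly all of the upper rows and high in the lower 5.

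Marker genes of other cell types also differed between these kidneys. The 18 markers of the loop, distal tubule and collecting duct summed to 235 to 1125 TPM in right kidneys with coarctation and 121 to 337 TPM in left, higher on the right in 3 of 3 coarctation mice and in 0 of 2 sham mice. The 9 podocyte markers summed to 44.8 to 56.6 TPM on the right and 81.8 to 102 TPM on the left. Their sum was lower on the right in 3 of 3 coarctation mice and higher there in 1 of 2 sham mice. The 16 leukocyte markers summed to 316 to 949 TPM and 69.0 to 488 TPM, higher on the right in 2 of 3 coarctation and 1 of 2 sham mice. Of the 15 tested, 12 had a positive and 3 a negative fitted change between coarctation kidneys (median log2 0.32). S100a8 and S100a9 were at 0 in several libraries of both kidneys. Endothelial markers (12 genes) summed to 127 to 132 TPM on the right and 84.9 to 126 TPM on the left, and mural markers (12 genes) to 2057 to 4885 and 2026 to 3595 TPM. Both sums were higher on the right in 3 of 3 coarctation mice, and in sham mice the endothelial sum was so in 0 of 2 and the mural sum in 2 of 2. By gene the direction was not shared, since 5 endothelial markers had a positive and 7 a negative fitted change between coarctation kidneys (median log2 -0.04), and 4 mural markers a positive and 8 a negative one (median -0.05). Proximal tubule markers (14 genes) summed to 2215 to 4875 TPM and 1598 to 10720 TPM, higher on the right in 2 of 3 coarctation and 1 of 2 sham mice. By gene, 13 of the 14 had a negative fitted change between coarctation kidneys (median -0.51). The 16 renin cell markers were present in both kidneys, with Kcnmb2 alone at 0 in some libraries. They summed to 17880 to 33000 TPM on the right and 46230 to 78490 TPM on the left. This sum was higher on the right in 0 of 3 coarctation mice and in 1 of 2 sham mice. Ren1 made up 9423 of the mean sum of 27290 TPM on the right, and 38260 of 61730 TPM on the left. Of the 15 tested, 4 had a positive and 11 a negative fitted change between coarctation kidneys (median -0.34). The part of cell content in the Kiss1 result was not tested.

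Coarctation mouse 1 stood apart from the other mice in another measure. The 4 Y-linked genes Ddx3y, Eif2s3y, Kdm5d and Uty summed to 2.81 TPM in its right and 2.36 TPM in its left kidney, and to 76.7 to 119 TPM in all other libraries. The labels give no sex. Its left kidney had the lowest Kiss1 of all left kidneys, 33.1 TPM. Without both of its kidneys the right kidneys of the remaining coarctation mice had 0.772 and 7.10 TPM of Kiss1, still below every other library.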

How the data were processed

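RNA was measured in 10 libraries, 1 per kidney of 5 mice. The deposited table gives TPM and estimated counts per gene, and per the file headers the estimated counts were scaled from TPM by transcript length and library size. Per the submitters' processing notes FastQC and build GRCm38 (mm10) were used, while the sources used here give no aligner, quantifier or annotation. Groups and mouse numbers were taken from the sample labels, and mice are biological replicates per the design text. The estimated counts were rounded and filtered with filterByExpr in edgeR 4.0.16 (R 4.3.3), leaving 18825 genes, and scaled by TMM. Contrasts were tested by quasi-likelihood in a fit of all 10 libraries as 4 groups (common dispersion 0.45, 6 residual degrees of freedom), with Benjamini-Hochberg adjustment over all genes and a threshold of 0.05. This model treats the kidneys of a mouse as independent. Because same-numbered kidneys come from the same mouse, a fit with the mouse as a replicate block was an alternative. Deviations from group means correlated within coarctation mice 1, 2 and 3 at 0.127, 0.0496 and 0.0307. The sham pairs share 1 value, 0.398, since with 2 mice per group the deviations of one mirror those of the other.

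The other alternatives were DESeq2 1.42.0, its size factors, no filter on low counts, limma 3.58.1 on log2(TPM + 1) and log2(TPM + 0.1), each library or mouse left out, the fit of only the groups compared, and Kiss1 counts summed with those of Gm28040. In a simulation that changed 200 genes, drawn from the means and sizes of these libraries, the sham right minus left test recovered 8% of 4-fold, 44% of 8-fold and 58% of 16-fold changes and called 4 unchanged genes. Positions are from GENCODE vM21 and promoters from RefSeq (GRCm38.p6).

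The rule for named genes took Kiss1, Kiss1r and Ren1, the 5 nearest genes in the table on each side of Kiss1, the 10 genes with the highest and the 5 with the lowest r, the 3 most abundant tested genes of each kisspeptin list, and the 3 list genes with the smallest p in each comparison. Other genes were named after their values were seen. Among the genes with the highest r, 1 is left out of the text and figures but stays in the counts. The members and the lists were chosen with earlier results of these data known. The likeness over the 7 libraries outside right kidneys with coarctation was added after the data were seen.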

Additional observations from a re-analysis of the deposited data

Results flagged for a closer look

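Among the genes examined singly, 3 differed between kidneys one way in every coarctation mouse and the other way in every sham mouse. Over the 59 tested genes of the kisspeptin lists this held for 3, of which Arrb2, not examined singly, is 1. Other genes were not searched, so no share over all genes stands beside these counts. They do not set these genes apart from others. Grk2 had log2 TPM differences between right and left kidney of 1.92, 0.35 and 0.51 in coarctation mice 1, 2 and 3, and of -0.29 and -0.02 in sham mice 1 and 2. The fitted difference between its changes was 1.05 (SE 0.84, edgeR adjusted p = 1). Rgs4 had log2 TPM differences between right and left kidney of 0.51, 0.47 and 0.38 in coarctation mice 1, 2 and 3, and of -0.11 and -0.02 in sham mice 1 and 2. In the fit the difference between its changes was 0.36 (SE 0.49), which did not pass the edgeR test (adjusted p = 1). Plekha6, a neighbour of Kiss1, had 0.02, 0.03 and 0.07 in coarctation mice and -0.66 and -0.14 in sham mice, with a fitted difference of 0.45 (SE 0.83, edgeR adjusted p = 1). Each Plekha6 difference in coarctation mice was under 0.1, and its fitted change there was negative (-0.12, SE 0.52). No cause was tested.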

How the results depend on the processing

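Kiss1 had the same direction between coarctation kidneys under every alternative run. Summing its counts with those of Gm28040 gave log2 changes of -2.84 between coarctation kidneys, -1.73 for the difference between the changes and -1.82 against sham right kidneys. With 1 library or mouse left out, these values ran from -8.51 to -5.16, from -7.32 to -3.99 and from -7.53 to -4.47, the lowest ones without the right kidney of coarctation mouse 3 or without that mouse. With the mouse as a replicate block, Kiss1 had -6.75 (SE 0.70) between coarctation kidneys and -1.12 (SE 0.63, edgeR adjusted p = 1) between sham kidneys. The sham value of Kiss1 ran from -1.60 to -0.61 with libraries left out and had an adjusted p of 0.957 to 1 throughout. Its value in left kidneys, coarctation minus sham, ran from -0.60 to 0.39 and so crossed 0. Leave-one-out ranges crossed 0 for Kiss1r in sham right minus left (-1.97 to 2.01), in the difference (-0.69 to 3.52) and in left kidneys (-2.61 to 1.28). They did so for Ren1 in sham right minus left (-0.97 to 0.45) and in left kidneys (-0.026 to 0.66), and for Mmp9 in left kidneys (-4.29 to 0.20). The causes were not tested.

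Of the kisspeptin lists, 1 gene (Mme) was called between coarctation kidneys with no filter on low counts, and 1 gene (Mmp2) between right kidneys by DESeq2. Of the neighbourhood, 1 gene (Ren1) was called between coarctation kidneys with no filter, by DESeq2 and with the replicate block, and with no filter also for the difference and between right kidneys. Over all genes the tests called 0 in each comparison, against 112, 19, 63, 67 and 70 with no filter and 86, 27, 37, 50 and 51 by DESeq2. The block gave 5, 0 and 0 in the first 3 comparisons and could not be fitted for coarctation against sham, which are different mice. Of the 10 genes most like Kiss1, 2 were among the first 10 by Spearman rho, 3 without sham mouse 1, 2 without coarctation mouse 1, 0 over within-mouse differences and 0 over the other 7 libraries. A fit of only the groups compared was not run for the difference, which needs all 4. Counts of 1 and 8 in the right kidneys of coarctation mice 1 and 2 limit the precision of the Kiss1 fold.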
